A study of Mus musculus with 5 samples.

Results

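The ADAMTS proteases are secreted zinc metalloproteases that cut proteins of the extracellular matrix, and their transcripts were measured here in whole mouse colon. The description covers 9 of the 22911 gene symbols on the array, Adamts1, Adamts2, Adamts4, Adamts5, Adamts8, Adamts9, Adamts10, Adamts15 and Adamts16, read through all 14 of their probes. They were selected on their signal and its difference between NT-3N and Control on these same arrays, so that difference is given for them as a description. No p-value is printed for any of them. Counts of those under a p threshold in the fit over all features are given, and they support nothing. RNA came from wild-type C57BL/B6 mice, with an age of 8 weeks given for the injected mice. The Control group was 2 mice with no treatment named, and the NT-3N group was 3 mice whose colon was taken 3 h after NT-3N, a modified human IL-11 that activates the IL-11 receptor, was injected into a vein. No group with vehicle alone was described, so effects of injecting and of NT-3N cannot be told apart. No engineered allele or other agent was named for either group, and each of the 5 RNA samples was read on its own single-colour array.

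An ADAMTS enzyme carries a metalloprotease domain followed by a disintegrin-like module and thrombospondin type I repeats, which hold the enzyme to matrix and cell surfaces. It is made as a zymogen that proprotein convertases such as furin process. The proteoglycanases of the family, among them Adamts1, Adamts4, Adamts5, Adamts8, Adamts9 and Adamts15, cut aggrecan, versican and related proteoglycans, the procollagen N-propeptidases such as Adamts2 trim new collagen, and Adamts10 binds fibrillin microfibrils. In the gut wall these enzymes come largely from fibroblasts, smooth muscle and vessels. IL-11 is a cytokine of the gp130 family, and its receptor signals mainly through STAT3.

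The promoters of Adamts1, Adamts2 and Adamts9 are shown because receptors of the gp130 family act on genes through STAT3, and the windows show which short motifs lie at the start sites of members described next. Each runs from 250 bases before to 50 bases after the annotated start in RefSeq (GRCm38.p6), 5′ to 3′ on the gene's own strand, and 3 of the 9 members matched that table. Capitals mark the letters TATAAA and, on either strand, GGGCGG (a GC box, printed as CCGCCC where it lies on the other strand).
Adamts1, chr16:85803064-85803363, minus strand: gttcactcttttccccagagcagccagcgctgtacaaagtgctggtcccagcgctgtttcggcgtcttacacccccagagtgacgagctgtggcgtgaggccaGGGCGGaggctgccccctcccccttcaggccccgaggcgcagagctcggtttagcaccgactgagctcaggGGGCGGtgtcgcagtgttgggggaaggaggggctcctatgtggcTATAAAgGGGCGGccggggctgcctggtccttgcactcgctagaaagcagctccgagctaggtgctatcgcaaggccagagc
Adamts2, chr11:50601835-50602134, plus strand: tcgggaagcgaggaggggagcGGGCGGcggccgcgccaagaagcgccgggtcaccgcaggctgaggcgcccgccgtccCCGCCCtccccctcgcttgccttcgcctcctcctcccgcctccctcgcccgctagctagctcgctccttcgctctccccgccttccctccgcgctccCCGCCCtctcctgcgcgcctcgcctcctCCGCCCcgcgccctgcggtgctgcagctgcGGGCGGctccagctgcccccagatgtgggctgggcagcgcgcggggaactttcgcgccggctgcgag
Adamts9, chr6:92943485-92943784, minus strand: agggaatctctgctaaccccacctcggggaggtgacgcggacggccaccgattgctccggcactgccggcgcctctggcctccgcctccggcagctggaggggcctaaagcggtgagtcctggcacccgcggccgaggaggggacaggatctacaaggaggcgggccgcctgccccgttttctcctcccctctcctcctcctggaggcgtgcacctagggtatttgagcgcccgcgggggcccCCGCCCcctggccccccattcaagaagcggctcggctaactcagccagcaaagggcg

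The Adamts1 window held TATAAA beginning 32 bases before the start, a spacing at which TATA boxes are commonly found, with GC boxes beginning 147, 76 and 25 bases before it. Among the 32851 promoter windows of this length, 13.6% held TATAAA on either strand at any position, and 1.99% held it on the gene's strand beginning between 40 and 20 bases before the start. The Adamts2 window held 5 GC boxes and the Adamts9 window held 1, and 35.7% of all windows held at least 1. The STAT motif TTCNNNGAA and the AP-1 motif TGANTCA, each searched on both strands, matched in none of these 3 windows and in 8.3% and 7.81% of all windows. The matches did not overlap each other, and in Adamts1 1 base lay between TATAAA and the nearest GC box. These matches describe letters in the windows and show no binding.

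Signal is given as log2 of the scanner's background-corrected processed signal after quantile normalization, a scale on which a difference of 1 is a doubling. Levels of different probes are not comparable with each other, since each probe binds its target differently, so genes are compared through the same probe between mice. Sums over a marker list use the same probes in every mouse and weigh the brightest most. The bound given for Adamts16 is an exception, since it uses a floor from other probes. Across the arrays, 70.6% to 72.9% of the 56605 probes lay well above background by the scanner's flag, no spot was saturated, and pairs of arrays correlated at 0.98 to 0.992 over the features tested. All 5 arrays sat on 1 slide and were scanned together. Socs3, a feedback inhibitor that STAT3 induces, served as a check of the treatment and rose from 10.37 ± 0.37 (SD, n = 2) in Control to 13.08 ± 0.18 (SD, n = 3) in NT-3N (limma, log2 fold change 2.71, adjusted p = 0.0087), a call lost without NT-3N replicate 2 (adjusted p = 0.060) or NT-3N replicate 3 (adjusted p = 0.12), with no filter on dim probes (0.091), with no intensity trend (0.073) and with the replicate number as a block (0.47). The epithelial markers Epcam and Vil1 and the smooth muscle markers Myh11 and Acta2 were well above background on all 5 arrays, in keeping with the label of whole colon.

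Of the 9 genes, 6 had a higher mean in NT-3N and 3 a lower one, beside 15263 and 17654 of all 32917 features. None of the 9 passed an adjusted p of 0.05 in the limma fit over all features, where 47 features (0.143%) passed. The higher means were those of Adamts1, Adamts4, Adamts8, Adamts9, Adamts15 and Adamts2, and the lower ones those of Adamts5, Adamts10 and Adamts16. An unadjusted p under 0.05 went with a higher mean for 4 of the 9 (Adamts1, Adamts4, Adamts8 and Adamts9), beside 4.95% of all features. The arrays of the groups did not overlap for 3 genes that were higher (Adamts1, Adamts8 and Adamts9), beside 13.5% of all features, and for Adamts10, which was lower, beside 14.8%. Adamts16 is counted among the 9 genes and the 3 lower means. It is left out of the genes named for an unadjusted p under 0.05 or for groups without overlap. The reason is that it passed the filter on dim probes only through its Control arrays and had no NT-3N array well above background. Since these values chose the genes, nothing is read from the counts. The median log2 difference was 0.32 over the 9 genes, also with Adamts16 at its bound, and −0.019 over all features. Of the 14 probes, 10 passed the filter on dim probes, and every gene kept at least 1 probe.

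**Figure D1:**
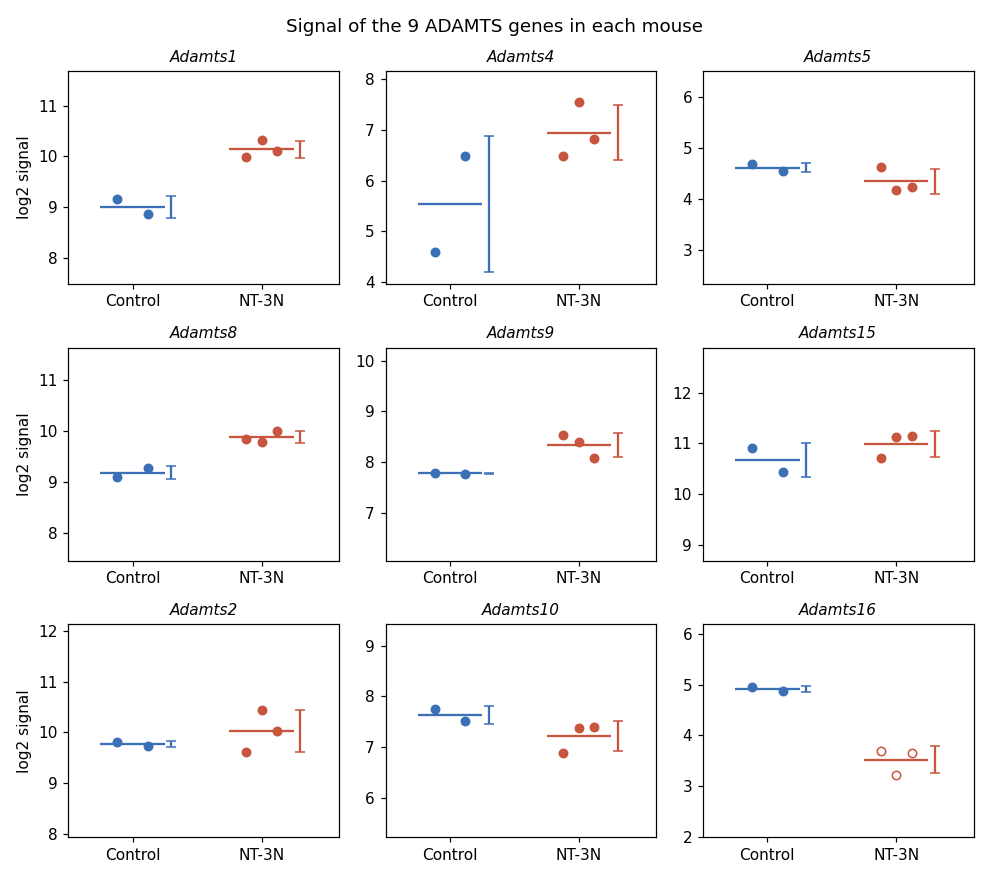
Log2 signal of the brightest probe of each ADAMTS gene in every mouse (y axis; each panel spans the same number of log2 units), with the group mean as a horizontal line and the SD as a bar beside it, for Control (blue, n = 2) and NT-3N (red, n = 3). Open points are groups in which no array lay well above background. This holds for Adamts16 in NT-3N, so its groups are not compared for overlap. The groups do not overlap for Adamts1, Adamts8 and Adamts9, which were higher in NT-3N, beside 13.5% of all features. The same holds for Adamts10, which was lower, beside 14.8%.

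Adamts1, a proteoglycanase that cuts versican and aggrecan and is needed for ovulation, stood 2.20-fold higher in NT-3N. Its log2 signal was 9.16 and 8.85 in the Control mice and 9.99, 10.32 and 10.11 in the NT-3N mice. Every NT-3N mouse lay above both Control mice, by 0.83 at the least, and the mice of a group lay within 0.34 of each other. The log2 difference was 1.13 (SE 0.15), and leaving out any 1 array kept it between 0.98 and 1.29. Of the 4 members measured above background in every mouse and without overlap between groups, it had the largest difference.

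Adamts8 and Adamts9 were also higher in every NT-3N mouse. Adamts8, a proteoglycanase known for its anti-angiogenic activity, read 9.09 and 9.27 in Control and 9.84, 9.79 and 10.01 in NT-3N. This was 1.63-fold higher, a log2 difference of 0.70 (SE 0.12), with the closest mice of the 2 groups 0.52 apart. Adamts9, a versican-cutting enzyme that also acts in ciliogenesis, read 7.78 and 7.77 in Control and 8.54, 8.40 and 8.08 in NT-3N. The Control mice were nearly equal and the NT-3N mice spread over 0.46, and the difference of means was 0.57 (SE 0.16), or 1.48-fold. Leaving out any 1 array kept the log2 difference of Adamts8 between 0.61 and 0.79 and that of Adamts9 between 0.47 and 0.69.

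Adamts4, an aggrecanase that also cuts versican and brevican, had the highest difference of means of the 9 genes, 2.66-fold, and the widest spread between mice of a group. Its signal was 4.59 and 6.48 in Control and 6.47, 7.54 and 6.82 in NT-3N. Control replicate 1 stood far below the other 4 mice, while Control replicate 2 and NT-3N replicate 1 were nearly equal, so the groups overlapped. The log2 difference of 1.41 (SE 0.58) became 0.46 without Control replicate 1 and 2.36 without Control replicate 2. It was 0.71 after normexp background correction. The size of the Adamts4 difference thus depended on the Control mouse it was set against.

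Adamts15 and Adamts2 had higher means in NT-3N with overlapping mice. Adamts15, a versican-cutting proteoglycanase, read 10.92 and 10.43 in Control and 10.70, 11.13 and 11.14 in NT-3N. Its log2 difference was 0.32 (SE 0.20), and leaving out Control replicate 2 gave 0.076 and leaving out Control replicate 1 gave 0.56. Adamts2, which removes the N-propeptide of fibrillar procollagens, read 9.81 and 9.73 in Control and 9.62, 10.44 and 10.03 in NT-3N, a difference of 0.26 (SE 0.23). NT-3N replicate 1 lay below both Control mice, and the difference was 0.054 without NT-3N replicate 2 and 0.47 without NT-3N replicate 1. A dimmer Adamts2 probe was well above background on 1 array and gave no usable value.

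Adamts2 was lowest in NT-3N replicate 1 and highest in NT-3N replicate 2. Col1a1, Col3a1 and Col1a2, whose collagen chains it helps mature, had the same lowest and highest mouse, and so did genes of other kinds. Relative to its own mean over the 5 arrays, Adamts2 stood at −0.31 in NT-3N replicate 1 and 0.52 in NT-3N replicate 2. Col1a1 stood at −0.51 and 0.57, Col3a1 at −0.42 and 0.51, and Col1a2 at −0.44 and 0.27 in the same mice. Fibrillin-1, Fbn1, which was added after its values were seen, stood at −0.42 and 0.47. None of the 4 matrix genes passed the test between groups (log2 differences −0.18 to 0.14, with a lowest limma adjusted p of 0.80). This lowest and highest mouse was shared by 1621 of 32910 features (4.93%), by 6 of 12 substrate genes and 6 of 12 fibroblast markers (both lists hold these collagens), and also by 3 of 8 endothelial and 2 of 4 macrophage markers. It was thus not particular to Adamts2 and collagens, and the 5 arrays are too few for a correlation.

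**Figure D2:**
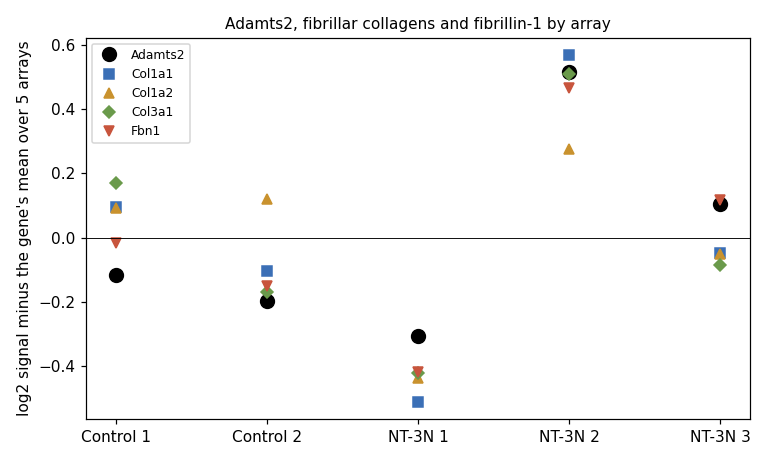
Log2 signal minus the gene's own mean over the 5 arrays (y axis) in each mouse (x axis) for Adamts2, 3 fibrillar collagen genes and Fbn1. NT-3N replicate 1 is the lowest and NT-3N replicate 2 the highest mouse for all 5 genes.

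Adamts5, Adamts10 and Adamts16 had lower means in NT-3N. Adamts5, the main aggrecanase of mouse cartilage, was dim, at 4.68 and 4.55 in Control and 4.63, 4.17 and 4.23 in NT-3N. The groups overlapped, the difference was −0.27 (SE 0.28; −0.057 after normexp and −0.42 without NT-3N replicate 1), and its second probe lay well above background on 0 of 5 arrays. Adamts10, mutated in a form of Weill-Marchesani syndrome, read 7.75 and 7.51 in Control and 6.88, 7.37 and 7.40 in NT-3N. All NT-3N mice lay below both Control mice, but only 0.11 separated the nearest pair, and the difference was −0.41 (SE 0.20; −0.25 without NT-3N replicate 1). Its second probe read 6.34 and 6.26 in Control and 5.54, 6.32 and 6.05 in NT-3N, a difference of −0.33 with overlapping groups. Both probes of Adamts10 were lowest in NT-3N replicate 1.

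Adamts16, an enzyme known from developing gonad and kidney, was measured above background in the Control mice alone. Its signal was 4.96 and 4.87 in Control, and 3.70, 3.22 and 3.65 in NT-3N, where it was not well above background on any of the 3 arrays. Set against the dimmest signal counted as well above background on those arrays, it was at least 2.33-fold lower in NT-3N. That floor comes from other probes, so the bound is approximate. It also depends on the processing, since the log2 difference of Adamts16 was −0.31 after normexp background correction. Its other 2 probes, which follow predicted transcripts, lay well above background on 0 of 5 arrays.

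**Figure D3:**
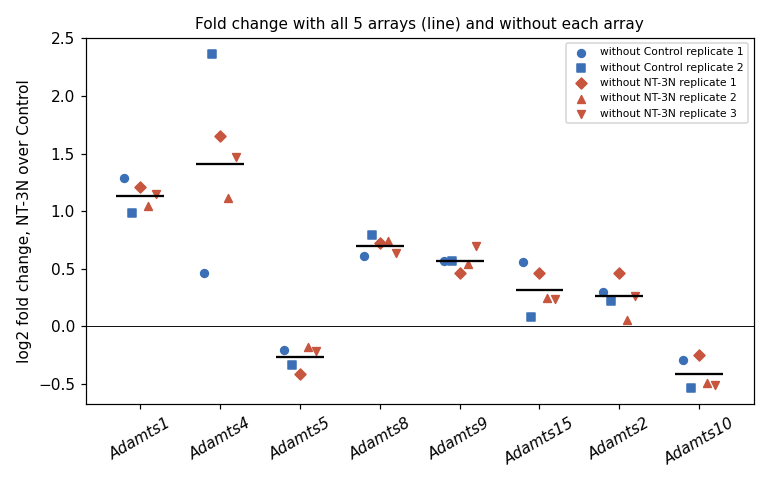
Log2 difference between NT-3N and Control (y axis) for the 8 ADAMTS genes measured in both groups, with all 5 arrays (black line) and with each array left out in turn (points; blue for a Control array, red for an NT-3N array). Adamts4 spans 0.46 to 2.36, while Adamts1 spans 0.98 to 1.29 and Adamts8 0.61 to 0.79.

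Of the 6 proteoglycanases, 5 had a higher mean in NT-3N and Adamts5 a lower one. Adamts1 and Adamts5 are neighbours on chromosome 16 with no protein-coding gene between them, and their log2 differences were 1.13 and −0.27. Adamts8 and Adamts15 are neighbours on chromosome 9 in the same way, and their differences were 0.70 and 0.32. Thus in both pairs a gene that was higher in every NT-3N mouse lay beside one with overlapping groups. The mean of the overlapping gene was lower in NT-3N on chromosome 16 and higher on chromosome 9.

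The other genes of the family gave no call. The array held 10 further ADAMTS genes and 7 ADAMTS-like genes, which keep the thrombospondin repeats and lack the protease domain. Adamts3 and Adamts12 were not well above background on any array, and of the 15 genes tested 0 passed an adjusted p of 0.05 in limma and 0 an unadjusted p of 0.05. Means were higher in NT-3N for 5 of them and lower for 10, beside 15263 and 17654 of all 32917 features, with a median log2 difference of −0.15. The 4 brightest further ADAMTS genes were Adamts14, Adamts7, Adamts17 and Adamts18. Adamts14, another procollagen N-propeptidase, differed by −0.29 (SE 0.13, adjusted p = 0.56), with both of its probes lower in every NT-3N mouse. Adamts7, which cuts cartilage oligomeric matrix protein, differed by −0.17, and Adamts17 by −0.013. The 2 probes of Adamts18 went opposite ways without overlap between groups, −0.43 for the brighter and 0.64 for the dimmer, so no direction is given for that gene. Of the ADAMTS-like genes, the brightest 4 differed by −0.21 (Adamtsl4, a fibrillin-binding protein), −0.32 (Papln), −0.14 (Adamtsl5) and 0.15 (Thsd4).

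**Figure D4:**
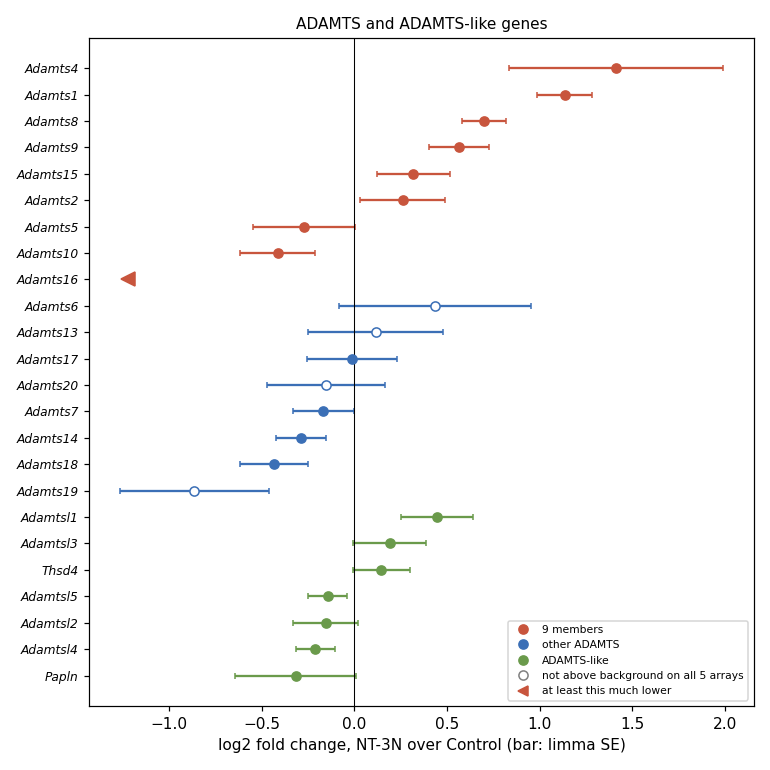
Log2 fold change between NT-3N and Control (x axis; bars are the limma SE) for the 9 ADAMTS genes described here (red), the 8 further ADAMTS genes tested (blue) and the 7 ADAMTS-like genes (green), each group sorted by its value. Open points were not well above background on all 5 arrays. The arrow marks the approximate bound for Adamts16, at least 2.33-fold lower in NT-3N (1.22 on the log2 scale) for the processed signal. The values run from 1.41 for Adamts4 down to that bound.

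Among the substrates, 12 of 13 listed genes were tested and 0 were called, while 3 had an unadjusted p under 0.05, all lower in NT-3N, beside 0.143% called and 4.67% lower at that p over all features. They were brevican, neurocan and fibrillin-2. Bcan, a proteoglycan of nervous tissue that Adamts4 cuts, read 7.67 and 8.07 in Control and between 6.93 and 7.07 in the 3 NT-3N mice, so that all NT-3N mice lay below both Control mice. Its log2 difference was −0.87 (SE 0.16, limma adjusted p = 0.18), and its second probe differed by −1.14. Ncan, a related proteoglycan of nervous tissue, differed by −0.67 (SE 0.21, adjusted p = 0.41), and Fbn2, a microfibril protein, by −0.51 (SE 0.16, adjusted p = 0.41). Versican, the proteoglycan that most of these enzymes share as a substrate outside cartilage, differed by 0.065 (SE 0.20, adjusted p = 0.93). Aggrecan was not well above background on any array. Vwf, the blood clotting factor that Adamts13 cuts, differed by 0.17 (adjusted p = 0.69).

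Among inhibitors, Timp1 was the call. The tissue inhibitors of metalloproteinases block matrix proteases, and Timp3 is the one known to act strongly on ADAMTS enzymes. Timp1 read 8.76 and 8.75 in Control and 10.40, 10.57 and 10.28 in NT-3N. It rose by 1.66 on the log2 scale (SE 0.12, limma adjusted p = 0.012), or 3.16-fold. The call was lost without Control replicate 1 (adjusted p = 0.058), NT-3N replicate 2 (0.065) or NT-3N replicate 3 (0.079), while its difference stayed between 1.58 and 1.73 there. Timp3 differed by −0.062 (SE 0.12, adjusted p = 0.89), Timp2 by −0.13, Timp4 by 0.025, and the clearance receptor Lrp1 by −0.22, none of which passed. A2m and Pzp, which trap proteases, were not well above background on any array.

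The proteases that activate ADAMTS zymogens and the proteins that bind or modify the family gave no call. All 5 activating proteases had a lower mean in NT-3N, beside 17654 of all 32917 features, with a median log2 difference of −0.17. Mmp17, a membrane-anchored protease that processes Adamts4, differed by −0.46 (SE 0.12, limma adjusted p = 0.31). It was the 1 of the 5 with an unadjusted p under 0.05, beside 4.67% of all features lower at that p. Furin differed by −0.14, Pcsk5 by −0.17, Pcsk6 by −0.38 and Pcsk7 by −0.10. Among the partners, Sdc4, a heparan sulfate proteoglycan that binds ADAMTS enzymes at the cell surface, differed by 0.25 (SE 0.090, adjusted p = 0.47). Fbln1, a cofactor of Adamts1, differed by 0.11, and the glycosyltransferases Pofut2 and B3glct, which modify thrombospondin repeats, by −0.15 and 0.029. Over the 14 genes tested of the inhibitor, activator and partner lists, 1 was called, Timp1, beside the 0.143% of all features.

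**Figure D5:**
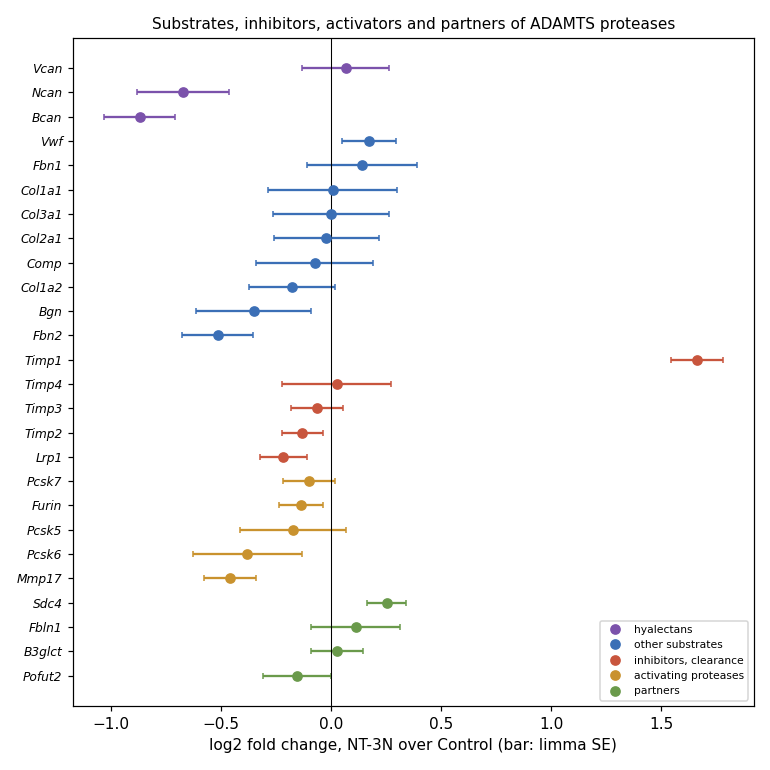
Log2 fold change between NT-3N and Control (x axis; bars are the limma SE) for the 26 tested genes that encode substrates, inhibitors, activators and partners of ADAMTS proteases, coloured by role and sorted within it. Timp1 lies at 1.66, Bcan at −0.87, and the other genes between −0.67 and 0.25.

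Whole colon mixes tissues, and in a bulk sample fewer cells of a type and less RNA per cell cannot be told apart. All 10 smooth muscle markers had a lower mean in NT-3N, with a median log2 difference of −0.35, 8 without overlap (beside 14.8% of all features), and 0 called and 5 at an unadjusted p under 0.05 in limma (beside 4.67%), and their summed linear signal was 476360 to 492500 in Control and 346810 to 436230 in NT-3N. Of 12 fibroblast markers 9 had a higher mean, with a median of 0.089, 0 called and 2 at an unadjusted p under 0.05, both higher (beside 4.95% of all features), and summed signals of 71662 to 78305 and 65396 to 97245. Endothelial markers had a median of 0.11, with 5 of 8 higher, 0 called and 0 at an unadjusted p under 0.05, and sums of 4411 to 4869 and 4383 to 5260. Over all 32917 features, 15263 means were higher in NT-3N and 17654 lower. The sums of the fibroblast and endothelial lists overlapped between groups, while that of smooth muscle did not. The part of these tissues in the ADAMTS differences was not tested.

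Markers of immune, fat, mesothelial, epithelial and nerve cells also varied between mice. The 6 B cell markers all had higher means in NT-3N (median 1.06, 0 called in limma and 1 at an unadjusted p under 0.05), with sums of 1089 to 4763 in Control, where Control replicate 2 was low, and 4430 to 5339 in NT-3N. The neutrophil genes S100a8 and S100a9 were well above background on 0 of 2 Control arrays and on 3 of 3 NT-3N arrays, although Mpo, another neutrophil gene of the list, had a lower mean and Ly6g had no probe. The 6 adipocyte markers summed to 8550 to 14360 in Control and 5359 to 12846 in NT-3N, and the 4 macrophage markers to 7863 to 8435 and 6696 to 9489. Of 5 mesothelial markers 3 were tested, with sums of 191 to 262 and 229 to 728. Epithelial markers summed to 767740 to 797400 and 692910 to 828190, with 0 of 9 called and 0 at an unadjusted p under 0.05 in limma. Among 7 enteric glia and neuron markers 1 was called, Gfap, higher by 1.84 (limma adjusted p = 0.012, and 0.086 without NT-3N replicate 2, 0.12 without NT-3N replicate 3, 0.072 with no filter on dim probes, 0.057 with no intensity trend and 0.35 with the replicate block), and the sums were 2580 to 2624 and 2559 to 2953. Control replicate 1, the mouse with the low Adamts4, held the higher Control sum of the B cell and adipocyte lists, and the part of either in that value was not tested.

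The genes most like a member over the 5 arrays were found by the root mean square difference of their centred log2 signals, among 17941 named genes. For Adamts4, the nearest were Kcnj16, a potassium channel subunit, at 0.22, Cacna2d4, a calcium channel subunit, at 0.26, and Pde4b, a cyclic AMP phosphodiesterase, at 0.27, beside a range of 2.96 for Adamts4 itself. For Adamts10, they were Gna11, a G protein subunit, Cerox1, a long non-coding RNA, and 4933417D19Rik, each at 0.035, beside a range of 0.87. The likeness rests on 5 arrays and is a description.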

How the data were processed

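Total RNA of colon from 5 mice was labelled with Cy3 and hybridised to single-colour Agilent arrays, 1 sample each. The submitters' processing notes name Feature Extraction 11.0.1.1. For each spot, the scanner output deposited by the authors gives a processed signal, a background-corrected intensity on a linear scale. Their deposited value table, in log2 units after quantile normalization, covers 37380 probes. It correlated at 0.99998 or more with the values computed here and held 9 of the 14 ADAMTS probes.

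From the intensities, control and outlier spots were left out, spots of a probe averaged, and log2 values quantile normalized. Testing required that a probe be flagged well above background by the scanner on 2 or more arrays, with values present for both Control mice and for 2 or more NT-3N mice. The brightest probe stood for a gene. Symbols came from RefSeq (GRCm38.p6) by transcript accession for 32994 of 56605 probes. The groups were compared with limma 3.58.1 (R 4.3.3; lmFit, eBayes with an intensity trend, two-sided) and Benjamini-Hochberg adjustment over 32917 features, called under 0.05. The local-pooled-error test that the study's methods name was not run. The pipeline was tested on simulated data.

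The bound for Adamts16 set the Control mean against the higher, per NT-3N array, of its own signal and the lowest signal well above background. Alternatives were scaling to the 75th percentile, normexp with an offset of 50, the deposited table, other probe filters, no trend, averaged probes, a replicate block and leaving out each array. Nothing states whether tissue pieces were matched. The p-values set the difference between groups against the spread within groups, which limma draws towards that of all features. The number of samples, 5, limits the precision.

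The ADAMTS genes and all gene lists were chosen with earlier results of these data known. Of each list, genes called, genes with an unadjusted p under 0.05 and the 4 brightest others were named, and of marker lists the 2 listed earliest; Fbn1, Gfap, Mpo and Ly6g were named after their values were seen.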

Additional observations from a re-analysis of the deposited data

How the results depend on the processing

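Over 13 alternatives no ADAMTS gene was called and none changed sign (11 for Adamts16, which had no value in the other 2), and 6 of the 9 had a higher mean in each. Part of this was fixed beforehand. The probe filters and the trend setting kept each gene's log2 difference. Leaving out an array cannot change the sign where groups do not overlap. The replicate block used the same arrays as leaving out NT-3N replicate 3. The counts over all features moved: 41 higher and 6 lower became 2 and 0 with no filter on dim probes, 2 and 0 with no intensity trend, and 0 and 0 with the replicate block, which left 4 arrays and 2497 features at an unadjusted p under 0.05 in limma. The deposited table gave 11 lower and the filter for all 5 arrays 13. Leaving out 1 array gave 0 to 114 higher and 0 to 16 lower, with 0 of both (2384 features at an unadjusted p under 0.05) without NT-3N replicate 3. Dropping Control replicate 1 gave 31 and 0, and dropping Control replicate 2 gave 114 and 4. Dropping NT-3N replicate 1 gave 71 and 16, and dropping NT-3N replicate 2 gave 9 and 1. Timp1 lost its call, leaving 0 called among inhibitors, activators and partners, with no filter, no trend, the replicate block and without Control replicate 1, NT-3N replicate 2 or NT-3N replicate 3 (0 to 1 over all arrays left out). Leaving out arrays or blocking uses fewer arrays, and otherwise the cause was not tested. The deviations of same-numbered mice correlated at 0.129 and 0.0357 over 2 pairs, and nothing states that the numbers pair mice, so they were not taken to do so. Substrates and further ADAMTS genes stayed at 0 called throughout. Without single arrays, the smooth muscle median ran from −0.42 to −0.23, the fibroblast median from −0.029 to 0.23 and the endothelial median from 0.030 to 0.15. Genes with small differences, none of them called, changed sign under some alternatives. Under 75th percentile scaling Col3a1 differed by 0.014, and in the deposited table by 0.0036. Adamts17 differed by 0.027 after normexp. With averaged probes Pofut2 differed by 0.038, Vcan by −0.065, Col1a1 by −0.017 and Adamts18 by 0.10. With the replicate block Timp4 differed by −0.022, Fbln1 by −0.026, B3glct by −0.043, Col3a1 by 0.043 and Adamts17 by 0.20. Over the arrays left out, Timp3 ran from −0.16 to 0.016, Timp4 from −0.25 to 0.29, Pcsk7 from −0.25 to 0.046, Fbln1 from −0.026 to 0.31, B3glct from −0.054 to 0.11 and Vcan from −0.16 to 0.29. In the same way Fbn1 ran from −0.066 to 0.38, Col1a1 from −0.28 to 0.26, Col1a2 from −0.35 to 0.0060, Col3a1 from −0.25 to 0.21, Adamts7 from −0.36 to 0.021, Adamts17 from −0.17 to 0.20 and Thsd4 from −0.031 to 0.32. Dim probes such as those of Adamts5 and Adamts16 are limited by background.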
